A study of Drosophila melanogaster with 3 samples.

Results

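The 10 genes described here are the trunk and terminal gap genes hb, Kr, kni, gt, tll and hkb and the neuroblast temporal factor genes nub, pdm2, cas and D; hb and Kr belong to both groups. They were taken by name from 13945 protein-coding genes on the 6 main chromosome arms. The assay was ChIP-seq, in which DNA bound by a protein is recovered with an antibody and sequenced. The protein was E(spl)mgamma-HLH carrying a C-terminal GFP tag, expressed from a transgene in Drosophila melanogaster, and the antibody recognised GFP. Whole embryos of mixed sex aged 0 to 16 h were used, in 3 biological replicates of 1 group (strain Esplmgamma-HLH-GFP), and DNA was sonicated to between 200 and 800 bp. All embryos carried the transgene, no other genotype or stage was profiled, and no condition was compared. In whole embryos, strong binding in a few cells and weak binding in many cannot be told apart.

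E(spl)mgamma-HLH is a basic helix-loop-helix repressor of the Hairy/E(spl) family, switched on by Notch signalling, and in neural stem cells (neuroblasts) it helps to hold the progenitor state. Gap genes encode transcription factors that read maternal gradients in the early embryo, repress each other and divide the body axis into broad domains. Later the same embryo uses hb, Kr, nub with pdm2, cas and then grh in turn in dividing neuroblasts, so that neurons born at different times take different fates. Each gene was given a territory, made up of its annotated body and the 5 kb before its first transcription start site (TSS), and a peak counted when its summit, the position of highest signal in the peak, lay inside. Territories ranged from 6632 bp at hkb to 45511 bp at nub, with a median of 8440 bp against 7166 bp for all protein-coding genes. Coordinates are dm6, 1-based.

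Replicate 2 stood apart from the others before any gene was considered. Its list held 30000 peaks, 12953 of them with a q-value below 0.05, whereas the lists of replicates 1 and 3 held 23367 and 24251 peaks, with 5411 and 7087 below 0.05. Of the replicate 2 peaks below 0.05, 20.4% overlapped no peak of either other replicate, and the same share was 1.18% for replicate 1 and 2.51% for replicate 3. The list held exactly 30000 peaks, and whether it was cut at that length, which would bear on its ranks and any-peak counts, was not tested. Results that rest on replicate 2 are therefore given beside the values of the other lists. Per the deposited records, the pooled and replicate lists hold background regions beside peaks, and a listed region is called a peak here whatever its q-value.

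None of the 10 genes carried a peak of the authors' reproducible set of 4524 peaks, whereas 37.0% of all protein-coding genes did. Among the 6037 genes with territories between 6632 and 11843 bp, the range of the 8 shorter members, 39.3% had a reproducible peak, and among the 690 genes with territories of at least 34142 bp, the length of pdm2, 61.3% had one. In the pooled list, which was called on all replicates together, 3 of the 10 genes had any peak (75.1% of all genes) and 2 had a peak with a q-value below 0.05 (51.4% of all genes). Over the shorter length range 1 of 8 had any pooled peak (78.6% of genes) and 1 of 8 had one below 0.05 (54.5%). Both long genes, nub and pdm2, had a pooled peak (96.4%) and 1 of the 2 had one below 0.05 (78.8%). The genes with pooled peaks were hb, nub and pdm2. Kr, kni, gt, tll, hkb, cas and D had no listed peak there. The reproducible set was derived in part from the pooled list, so the counts in both are not separate evidence. The members were a list chosen with earlier results of these data known, so these counts are a description and carry no test.

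In the replicate lists, calls at these genes came from replicate 2. A peak with a q-value below 0.05 was present at 0 of 10 genes in replicate 1 (41.5% of all genes), at 5 of 10 in replicate 2 (60.0% of all genes) and at 0 of 10 in replicate 3 (47.4% of all genes). With peaks of any q-value the counts were 5, 10 and 5 of 10, against 79.4%, 76.5% and 80.2% of all genes. Over the 8 shorter members the counts below 0.05 were 0, 3 and 0, against 43.9%, 64.8% and 50.1% of genes of that length. Within the first 4524 ranks of each list, the size of the reproducible set, the counts were 0, 1 and 0 of 10, against 37.4%, 35.4% and 37.1% of all genes. Over the 146.744 kb of member territory replicates 1, 2 and 3 listed 12, 31 and 11 peaks, or 8.18, 21.1 and 7.50 per 100 kb. Over the joined territories of all protein-coding genes the densities were 18.8, 25.4 and 19.7 peaks per 100 kb. Member territories thus held fewer peaks per length than coding territory at large in each replicate list, by the widest margin in replicates 1 and 3.

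**Figure D1:**
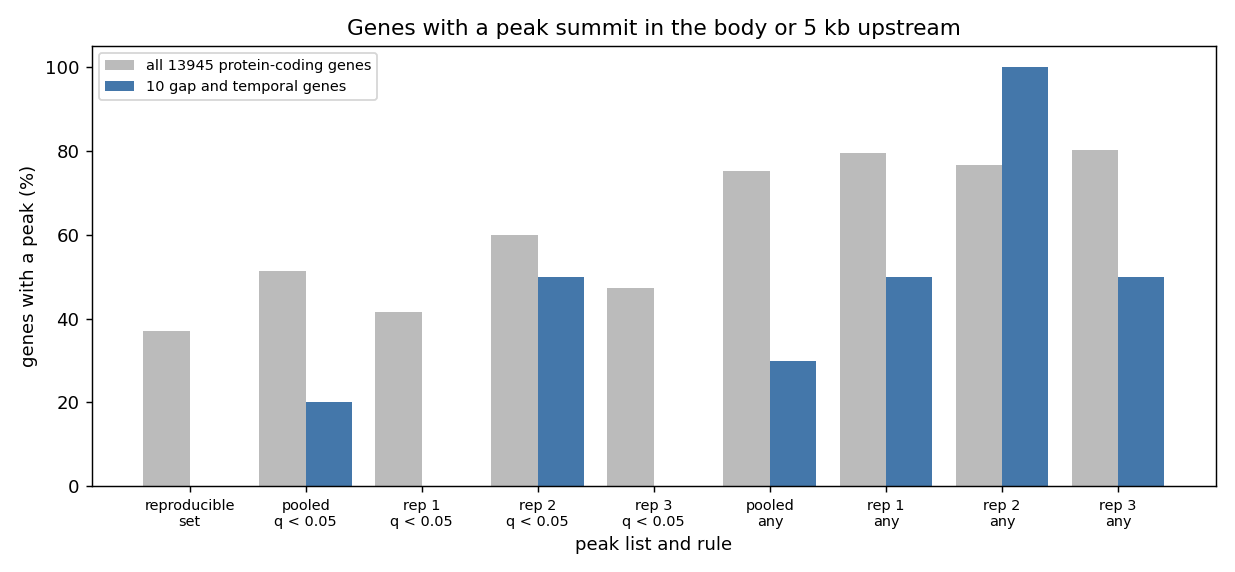
Share of genes (%) with a peak summit in the gene body or 5 kb upstream, for all protein-coding genes (grey bars) and for the 10 gap and temporal genes (blue bars), by peak list and rule. The blue bar is at 0 for the reproducible set and for replicates 1 and 3 at q below 0.05, and stands above the grey bar for replicate 2 with any listed peak.

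Sequence is shown for selected sites at these genes, so that the base composition and the motif matches described further on can be read directly. Each window holds a summit and 50 bp on either side and is written on the coding strand of the gene, from RefSeq sequence of the dm6 assembly. Capitals mark a match to the E-box core CANNTG, the class C site CACGCG or the N-box CACNAG, on either strand. The first 3 are the highest pooled peaks of the genes that had any, and the others are 3 of the 5 replicate 2 peaks with a q-value below 0.05 next to a TSS. The nub pooled peak is a weak one, with a q-value of 0.441. Of the other two, the hb window overlaps the hb window shown and the Kr window is not printed, and neither held a match to these motifs. The choice was made after their values were seen.
hb pooled peak, 3R:8694352-8694452, minus strand: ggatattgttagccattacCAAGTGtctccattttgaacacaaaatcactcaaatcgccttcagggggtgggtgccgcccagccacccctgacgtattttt
pdm2 pooled peak, 2L:12681909-12682009, plus strand: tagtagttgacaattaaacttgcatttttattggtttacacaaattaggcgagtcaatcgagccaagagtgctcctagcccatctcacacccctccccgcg
nub pooled peak, 2L:12601790-12601890, plus strand: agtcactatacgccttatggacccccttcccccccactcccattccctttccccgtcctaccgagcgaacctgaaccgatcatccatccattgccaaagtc
hkb replicate 2 peak, 3R:4346734-4346834, minus strand: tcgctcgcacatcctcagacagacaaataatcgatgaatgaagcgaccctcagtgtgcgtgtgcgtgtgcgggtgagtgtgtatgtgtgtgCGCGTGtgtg
nub replicate 2 peak, 2L:12618390-12618490, plus strand: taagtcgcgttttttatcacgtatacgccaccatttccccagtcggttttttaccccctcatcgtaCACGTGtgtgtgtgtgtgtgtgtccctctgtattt
pdm2 replicate 2 peak, 2L:12678430-12678530, plus strand: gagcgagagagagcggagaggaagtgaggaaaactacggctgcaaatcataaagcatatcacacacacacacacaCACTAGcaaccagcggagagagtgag

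hb encodes the zinc finger protein Hunchback, which patterns the anterior of the early embryo and opens the temporal series in neuroblasts. The gene lies on the minus strand at 3R:8690980-8697822 with 2 annotated TSSs, at 8697822 and 8694600. Its pooled peak (3R:8694210-8694593) had a signal of 67.3, rank 8273 of 20696 and a q-value of 0.0409, and its summit lay 198 bp downstream of the second TSS. The weakest peak of the reproducible set had a signal of 114 in the same pooled list. At this site replicate 1 had a peak of rank 8601 and q-value 0.322, replicate 2 had one of rank 7681 and q-value 0.000716, and replicate 3 had none. Replicate 3 listed 1 peak in the territory, at -4528 bp from the first TSS (negative distances are upstream), with a q-value of 0.906. Of the 5 separate sites at hb, made by merging overlapping replicate peaks, this was the single site found in more than 1 replicate.

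Kr encodes the zinc finger repressor Krüppel, which defines the middle of the trunk and follows hb in the neuroblast series. The gene lies at 2R:25226611-25231394 within the span of CG9380 on the opposite strand. Replicate 2 had a peak (2R:25226244-25226643) whose summit lay at -167 bp from the TSS, with rank 6347 of 30000 and a q-value of 6.69e-05, the lowest value in that list and one shared by 7473 of its peaks. A second replicate 2 peak overlapped it, 33 bp downstream of the TSS, at a q-value of 0.179. Replicates 1 and 3 and the pooled list had no peak in the territory, so the Kr promoter call rested on 1 library.

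kni encodes a nuclear receptor-like repressor of the abdominal domain and gt a basic leucine zipper repressor expressed in an anterior and a posterior domain. At kni (3L:20692330-20695378) replicate 2 listed 1 peak, in coding sequence 1068 bp downstream of the nearer TSS, with a q-value of 0.140, and replicates 1 and 3 listed none. At gt (X:2427113-2428967) replicate 2 listed 2 peaks, at -3911 and 104 bp from the TSS, with q-values of 0.0706 and 0.350, and the other replicates listed none. Neither gene had a peak below 0.05 in any list.

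A stronger site lay just outside the kni territory. A peak at -5361 bp from a kni TSS (3L:20700547-20700930, intergenic, with kni as the nearest protein-coding TSS) had a pooled signal of 92.1, rank 5819 and a q-value of 0.000602. It had q-values of 0.0111, 6.69e-05 and 0.0177 in replicates 1, 2 and 3, with ranks of 4554, 6970 and 6251. All 3 replicates thus placed it below 0.05, which no site inside a member territory did. It was not part of the reproducible set, whose lowest signal was 114, above the 92.1 of this peak. The site was picked out after its value was seen.

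tll encodes a nuclear receptor that acts at both poles of the embryo and later in brain neuroblasts, and hkb encodes a zinc finger protein that defines the termini. At tll (3R:30852315-30854400) replicate 1 listed no peak, replicate 2 listed 2 upstream peaks (-4075 and -3363 bp, q-values of 0.380 and 0.432), and replicate 3 listed 2 in coding sequence (1401 and 1602 bp, q-values of 0.496 and 0.840). The 2 replicates that listed peaks at tll therefore listed them at different places. At hkb (3R:4345015-4346646) replicate 2 had a peak at -138 bp from the TSS, at rank 5823 with a q-value of 6.69e-05, and an overlapping one at -357 bp with a q-value of 0.391. Replicates 1 and 3 and the pooled list had no peak at hkb.

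nub and pdm2 encode the related POU domain proteins Pdm1 and Pdm2, which follow Kr in the neuroblast series, and lie next to each other on 2L in the same orientation. nub (2L:12587625-12628135) had 3 pooled peaks, all with q-values above 0.05. The highest, in an intron 14215 bp from the nearest nub TSS (2L:12601648-12602031), had a signal of 47.6, rank 12775 and a q-value of 0.441. This site was listed by replicate 1 (q-value 0.681) and replicate 3 (0.485) and not by replicate 2. The replicate 2 list instead had its highest nub peak 95 bp downstream of the second annotated TSS (2L:12618240-12618639), with rank 5525 and a q-value of 6.69e-05, where replicates 1 and 3 listed none. A weaker pooled peak overlapped it, at rank 16272 with a q-value of 0.733. The nearest protein-coding TSS to the intronic site was that of Ref2, a gene that overlaps nub on the opposite strand.

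pdm2 (2L:12657165-12686306) held 14 of the 40 sites found at the 10 genes, in a territory of 34142 bp, and 7, 8 and 3 peaks in replicates 1, 2 and 3. Its 4.10 sites per 10 kb compared with 4.99 at D, 4.23 at tll and 4.22 at hb, and nub had 1.76. Its highest pooled peak (2L:12681767-12682150) was intronic, 3355 bp downstream of the last annotated TSS, with a signal of 67.2, rank 8282 and a q-value of 0.0415. Replicate 2 placed this site at rank 4445 with a q-value of 6.69e-05, and replicates 1 and 3 listed no overlapping peak. This was the single member peak in any replicate list within the first 4524 ranks. Replicate 2 also had a peak at -124 bp from the last TSS (rank 7651, q-value 0.000719). The highest replicate 1 peak at pdm2 (rank 7572, q-value 0.230) lay elsewhere, at -641 bp from Nepl7, a gene nested in pdm2, and the highest of replicate 3 (rank 12279, q-value 0.428) lay in coding sequence 7021 bp from the last TSS.

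cas encodes the zinc finger protein Castor, which acts late in the neuroblast series, and D encodes Dichaete, a SoxB protein with an HMG domain that acts in segmentation and in the developing nervous system. At cas (3R:5712975-5716805) the peaks of replicate 1 (-3750 bp, q-value 0.741) and replicate 2 (-4002 bp, q-value 0.196) overlapped, and replicate 3 listed none. At D (3L:14175610-14178620) replicate 1 had 1 peak (q-value 0.934), replicate 2 had 2 (0.461 and 0.537) and replicate 3 had 2 (0.695 and 0.773). The lowest q-value at either gene was 0.196. Downstream of the D gene, outside its territory, a pooled peak (3L:14174248-14174631, rank 7585, q-value 0.0175) recurred in all 3 replicates, with q-values of 0.216, 0.00162 and 0.590, so that replicate 2 alone placed it below 0.05.

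**Figure D2:**
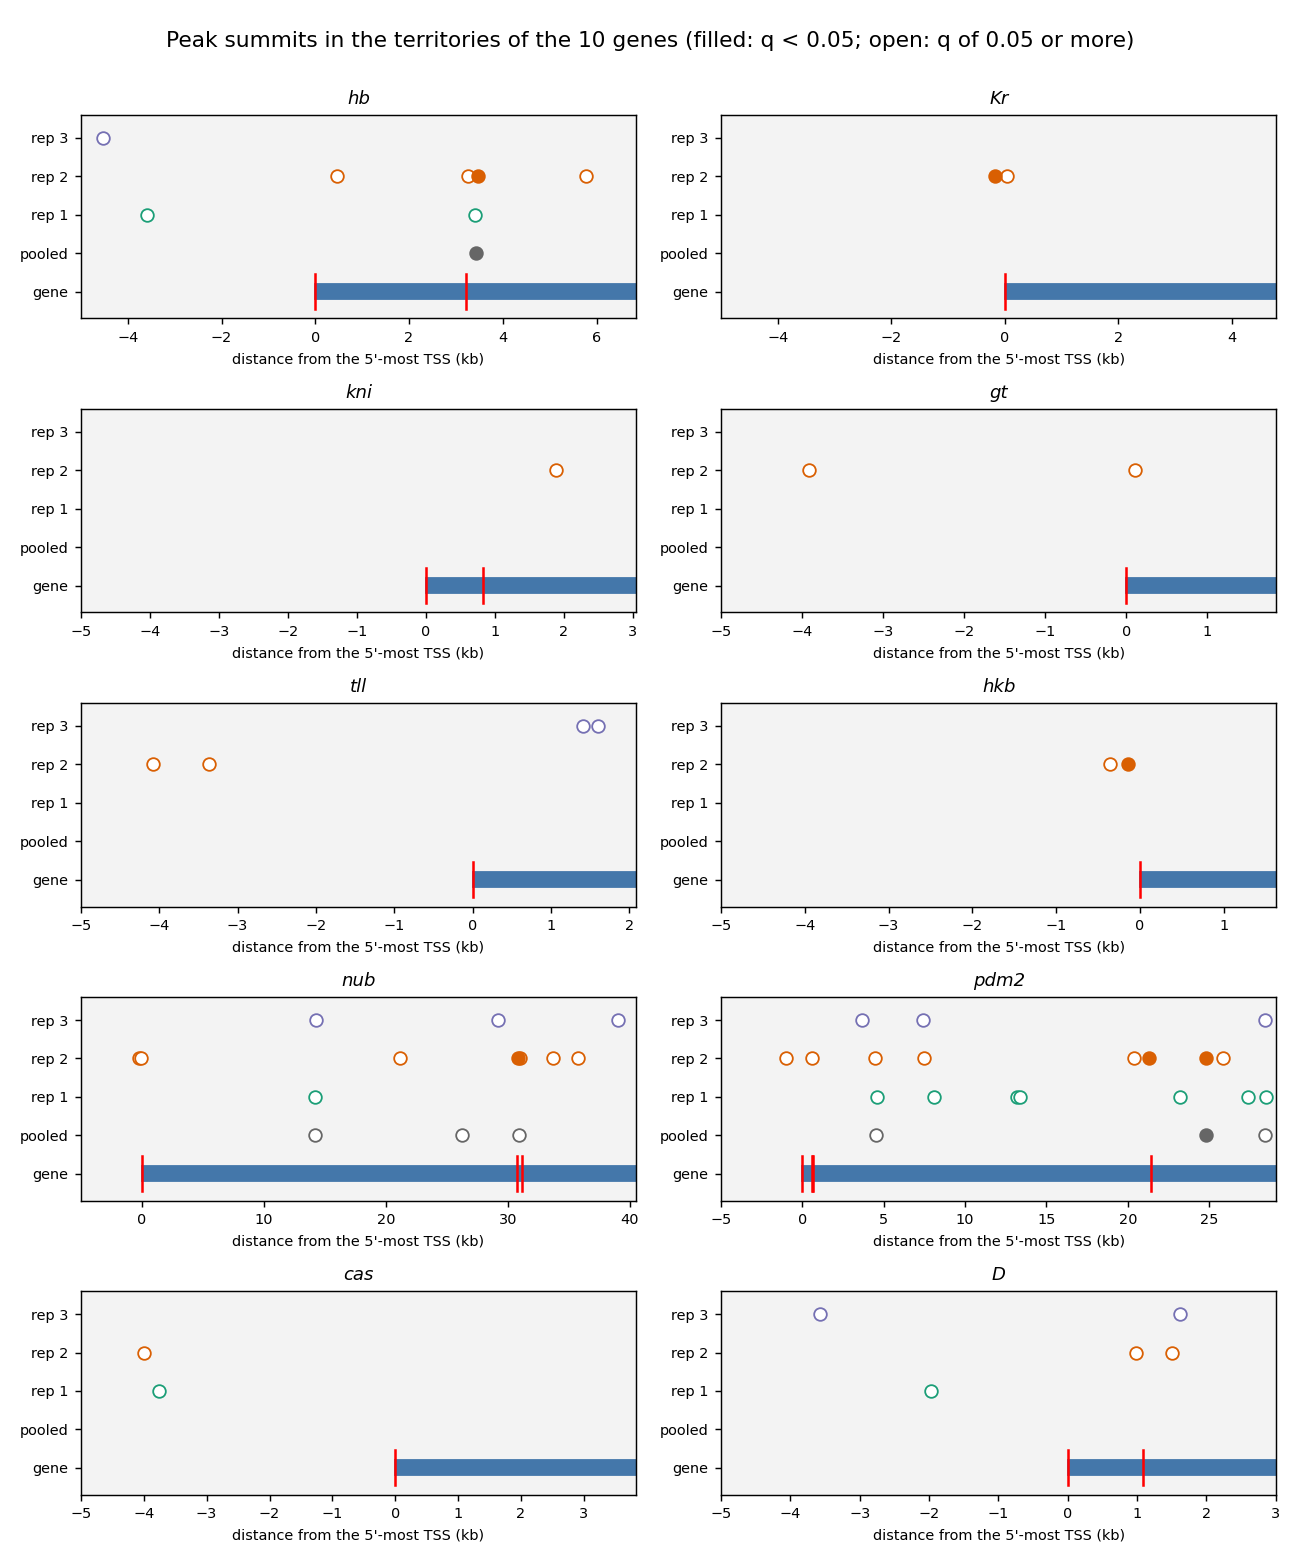
Positions of peak summits in the territories of the 10 genes, as distance in kb from the 5'-most TSS, with 1 row per list. Blue boxes are gene bodies, red bars are annotated TSSs, filled circles are peaks with q below 0.05 and open circles are other listed peaks. Filled circles appear in the pooled row at hb and pdm2 and otherwise in the replicate 2 row alone.

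Most sites at these genes were found in a single replicate. The 40 sites comprised 33 found in 1 replicate (82.5%), 7 found in 2 (17.5%) and 0 found in all 3. Over the joined territories of all protein-coding genes, merged in the same way, 38667 sites comprised 62.7% found in 1 replicate, 17.6% found in 2 and 19.7% found in all 3. The single site at cas was one of the 7 found in 2 replicates. Of the 33 sites found in 1 replicate, replicate 2 supplied 21 and replicates 1 and 3 supplied 6 each, and the replicate 2 list was the longest. By position, 10 sites were in promoters (within 500 bp of a protein-coding TSS), 13 in introns, 9 in intergenic sequence, 8 in coding sequence and 0 in UTRs. The promoter class was assigned first, so UTR sequence within 500 bp of a TSS counted as promoter. The same splits over all coding territories are not given here, so these counts are a description only. At the level of the gene, 4 of 10 had some peak in every replicate list, though at different sites, against 61.5% of all genes. Over the 8 shorter members it was 2 of 8, against 65.7%.

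Most replicate 2 calls at these genes lay at start sites. Of its 6 member peaks below 0.05, 5 had their summit within 500 bp of a TSS, at hb, Kr, hkb, nub and pdm2, and the sixth was the pdm2 intron. Of all 12953 replicate 2 peaks below 0.05, 39.6% lay within 500 bp of a TSS. Within 500 bp of an own TSS, 5 of 10 genes had such a peak in replicate 2 (37.9% of all genes), and 0 of 10 had one in replicate 1 (22.8%) or replicate 3 (26.6%), nor in the reproducible set (20.2%). With any q-value the counts near a TSS were 1, 7 and 0 of 10 in replicates 1, 2 and 3, against 39.9%, 53.4% and 42.5% of all genes. A peak below 0.05 in replicate 2 and in neither other replicate was found at 5 of 10 genes, against 13.3% of all genes. Among genes called in replicate 2, this was 5 of 5 members and 22.1% of all 8370 such genes. Since 0 of 10 members had a peak below 0.05 in replicates 1 and 3, both member counts follow from the earlier counts and are no separate result. None of these 5 start-site peaks ranked within the first 4524 of the list. The part of the depth or quality of replicate 2 in these calls was not tested.

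**Figure D3:**
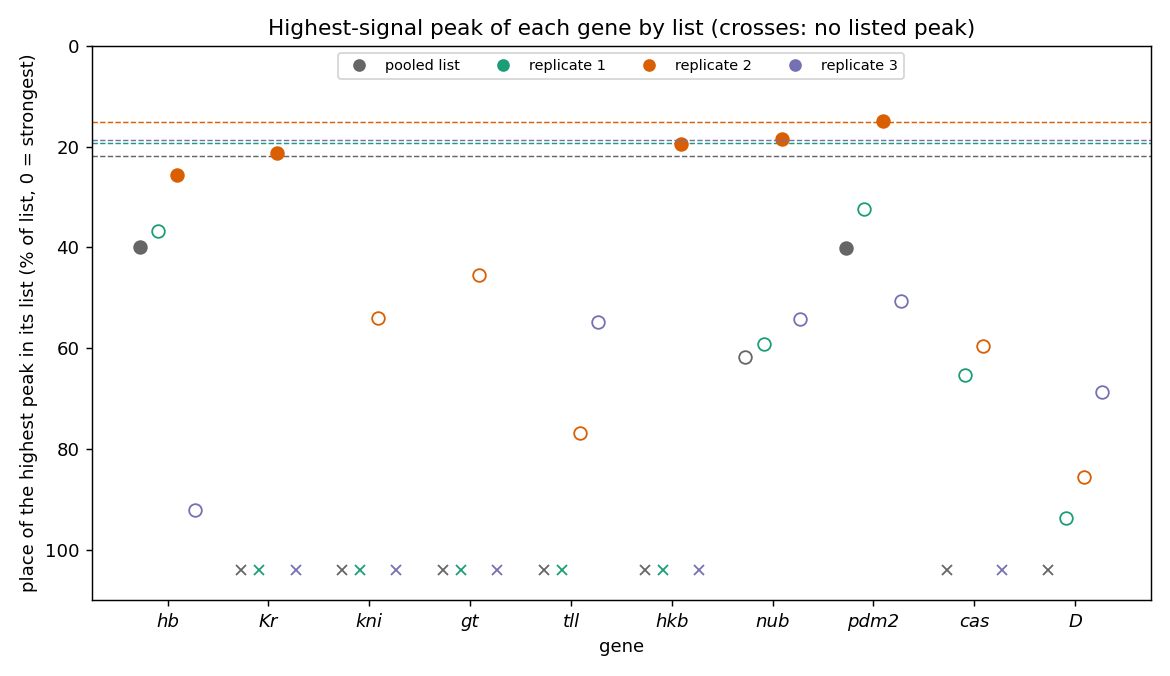
Place of each gene's highest-signal peak in each list, in % of the list with 0 as the strongest, for the pooled list and the 3 replicates. Filled circles mark genes with a peak of q below 0.05, crosses genes with no listed peak, and dashed lines rank 4524 in each list; the replicate 2 peak of pdm2 is the single point above its line.

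The windows at these peaks had a higher mean GC content than those of the reproducible set. That set held no member peak, so weaker peaks are set beside stronger ones here. Mean GC content was 34.7% (SD 8.81, 4524 windows) in the reproducible set and 40.5% (SD 11.1) over all 20696 pooled peaks. In member territories it was 51.8% (SD 7.87, 7 windows) for pooled peaks and 48.3% (SD 8.81, 12 windows), 48.0% (SD 8.62, 31 windows) and 55.5% (SD 5.02, 11 windows) for replicates 1, 2 and 3. Over all peaks of those lists the means were 42.4%, 42.2% and 41.8%, with SDs from 10.7 to 11.2. Windows of replicate 2 peaks below 0.05 that overlapped no peak of the other replicates had 45.6% (SD 10.3, 2645 windows), and those that did had 37.5% (SD 10.3, 10308 windows). Within 500 bp of a TSS the windows without such overlap had 46.9% (SD 9.30, 985 windows). Member windows within a territory are not independent of each other, and no test was made.

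Matches to the sites known for Hairy/E(spl) proteins were found in some member windows. Of the 5 start-site windows of replicate 2 below 0.05, those of nub, hkb and pdm2 held a match and those of hb and Kr held none. Each of these matches overlapped or adjoined a dinucleotide repeat, described below. CACGTG stood in the nub start-site window, which was also its single CANNTG match, and the class C site in the hkb window, written there as its reverse complement CGCGTG. The pdm2 start-site window held the N-box CACTAG, the hb pooled window held 1 E-box core, CAAGTG, and the pooled windows of nub and the pdm2 intron held no match to any of these motifs. For comparison, CACGTG stood in 0.818% of reproducible windows and 1.26% of replicate 2 windows below 0.05, CACGCG in 1.17% and 2.45%, CACNAG in 10.5% and 11.2%, and CANNTG in 35.1% and 38.8%. The nub, hkb and pdm2 start-site windows lay in a narrower class, replicate 2 start-site windows below 0.05 that overlapped no other replicate's peak. Over its 985 windows the shares were higher, at 2.84%, 5.18%, 12.7% and 43.6% in the same order. Across all 31 member windows of replicate 2, of any q-value, CACGTG stood in 2, CACGCG in 3 and CACNAG in 8, against 1.42%, 2.63% and 12.3% of all 30000 windows of that list. The 12 member windows of replicate 1, the 11 of replicate 3 and the 7 pooled ones held 0 CACGTG and 0 CACGCG, and CACNAG stood in 2, 4 and 2 of them. The Su(H) cores GTGGGAA and GTGAGAA, bound by the nuclear effector of Notch, stood in 0 and 1 of the 31 replicate 2 windows, and CAGGTA, bound by the early activator Zelda, in 2, against 1.34%, 1.09% and 2.40% of all windows of that list.

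The start-site windows of hkb, nub and pdm2 also held runs of alternating C and A (or G and T) that can be read in the sequences above. The longest runs were 8, 20 and 19 bp, and the windows at hb and Kr and in the pdm2 intron held none of 8 bp or more. The CACGTG at nub (window positions 67 to 72) and the CACTAG at pdm2 (76 to 81) shared bases with these runs. The CGCGTG at hkb (92 to 97) directly followed its run (84 to 91). The motif matches and the runs in these windows are thus not separate features. A run of at least 8 bp that begins with C on either strand stood in 0.685% of reproducible windows, in 2.13% of replicate 2 windows below 0.05 that overlapped a peak of another replicate and in 4.42% of those that did not. This search was chosen after the sequences were seen.

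The nearest reproducible peaks lay at a distance. Measured from the closest annotated TSS, the nearest summit of the set was 59.3 kb away at Kr, 39.8 kb at gt, 38.4 kb at nub, 34.8 kb at tll, 22.1 kb at pdm2, 17.8 kb at hb, 16.2 kb at kni, 12.5 kb at hkb and 11.1 kb at both cas and D. The median was 20.0 kb, against 6.94 kb for all protein-coding genes (quartiles 1.37 and 19.5 kb). At every member the distance exceeded that median, which partly follows from the lack of a reproducible peak in each territory. The distances at hb, kni, hkb, cas and D lay inside the quartile range. The share of genes with a peak at that distance or nearer ran from 61.6% at D to 93.6% at Kr. Most of the nearest reproducible peaks sat closer to another gene, among them Unc50 (-138 bp) near hb, cindr (-113 bp) near tll and CG9776 (-101 bp) near hkb. The exception was D, where an intergenic peak 11085 bp downstream of its TSS (3L:14166260-14166643, rank 4455 of 4524) had D as its nearest protein-coding TSS.

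**Figure D4:**
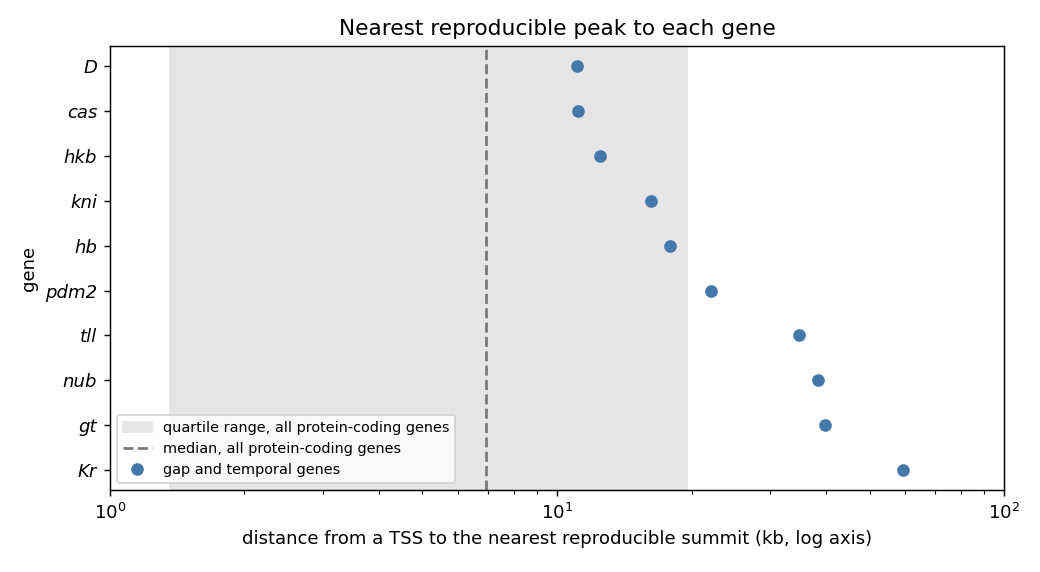
Distance from the closest annotated TSS of each gene to the nearest reproducible summit, in kb on a log axis. Points are the 10 genes, the dashed line is the median over all protein-coding genes (6.94 kb) and the grey band its quartile range. All points lie to the right of the line, from 11.1 kb at D and cas to 59.3 kb at Kr. Those of hb, kni, hkb, cas and D lie inside the band.

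Genes that act with the members showed a mixed picture under the same territory rule. In the list of later temporal and switching factors, 6 of 10 had a reproducible peak, among them grh, which encodes the last factor of the embryonic series (2 peaks, best rank 866, 2054 bp from a TSS), and nab (rank 3441), which encodes a cofactor. The best of this list were sqz (rank 374, with the TSS of CG42359 nearer), grh and hth (9 peaks, best rank 923), and svp, which encodes the nuclear receptor that ends hb expression in neuroblasts, had none. In the embryonic series itself, hb, Kr, nub, pdm2 and cas had no reproducible peak, and grh had one. Head gap and gap partner genes had a reproducible peak in 1 of 7, cnc (rank 1289), and knrl, the paralog of kni, had none, though each replicate list had a peak below 0.05 there. Pair-rule genes and engrailed had one in 2 of 12, namely slp2 (rank 160, -4316 bp) and inv (rank 3399). The other lists stood at 7 of 11 for the maternal and terminal system, 6 of 12 for neuroblast polarity and identity and 4 of 8 for Hox genes, against 37.0% of all genes. Their best-ranked genes were gro (rank 105), cic, bcd and pum (1094) in the maternal and terminal list, brat (135), numb (173), baz (183) and insc (1783) in the neuroblast list, and Antp (1215), Abd-B (2659), Dfd (3377) and abd-A (4107) in the Hox list. As at sqz, the best reproducible peak lay nearer the TSS of another gene at nos, osk, pros, nerfin-1 and dac. Those genes are included in the counts of their lists. Median territories were 25.2 kb for the later temporal list, 35.6 kb for Hox genes, 13.4 kb for head gap and gap partner genes, 9.42 kb for the maternal list, 8.34 kb for neuroblast genes and 8.16 kb for pair-rule genes, beside 8.44 kb for the 10 members. Over all genes the share with a reproducible peak rose with territory length, from 24.2% between 5 and 6.5 kb to 63.9% at 60 kb or more. No test of a difference between lists was made.

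Replicate 2 set these lists apart from replicates 1 and 3 as well. Over the 60 listed genes, 56 had a peak below 0.05 in replicate 2, 28 in replicate 1 and 32 in replicate 3, against 60.0%, 41.5% and 47.4% of all genes. A call in replicate 2 and in neither other replicate was found at 5 of 7 head gap and gap partner genes, 5 of 12 pair-rule and engrailed genes, 6 of 12 neuroblast genes, 3 of 10 later temporal factors, 3 of 11 maternal and terminal genes and 1 of 8 Hox genes, beside 5 of 10 gap and temporal genes and 13.3% of all genes. Within the maternal and terminal list, bcd, which encodes the activator of hb, had a reproducible peak at -207 bp (rank 1092), and cic, which encodes the repressor relieved by terminal signalling at tll and hkb, had 3 (best rank 576).

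**Figure D5:**
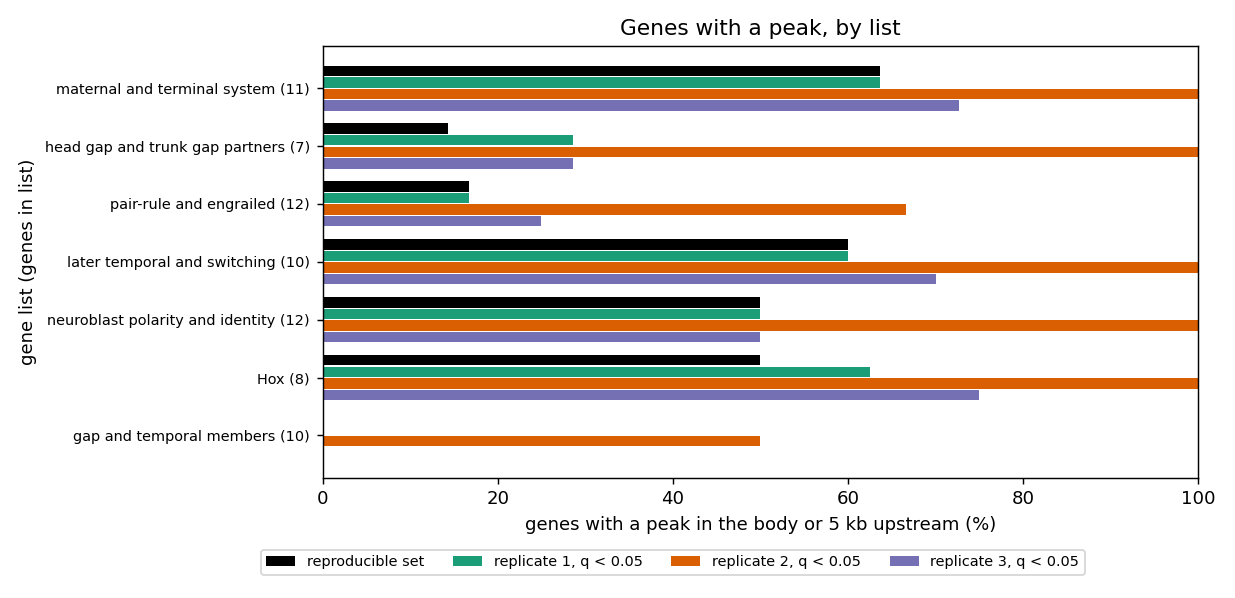
Share of genes (%) with a peak in the body or 5 kb upstream, for 6 lists of related genes and the 10 gap and temporal genes (number of genes in parentheses), in the reproducible set (black) and in replicates 1, 2 and 3 at q below 0.05 (colours). For the 10 genes the bars of the reproducible set and of replicates 1 and 3 are at 0 and that of replicate 2 is at 5 of 10 genes.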

How the data were processed

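The deposited dm6 narrowPeak lists were used: 1 per replicate, 1 pooled and the reproducible set from the irreproducible discovery rate (IDR) step. Per the deposited text records, replicate and pooled lists were called on alignments with a control and the reproducible set was derived from all 4. The text records used here name no aligner, peak caller, version or IDR cutoff. The peak signal deposited by the authors is not normalized between lists and only ordered peaks within a list. The authors' q-values were deposited as −log10 values. No read counts were used, so depth is unknown and only the peak calls limit precision. Lists in dm3 were not used, and the control was not analysed here.

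Genes came from Ensembl release 115 (BDGP6), sequence from the RefSeq Release 6 assembly, both dm6; every peak ended within its arm. Peaks were assigned to territories by summit. Sites were replicate peaks overlapping by at least 1 bp. Python 3.11.15 and pandas 2.3.3 were used, and counting and motif search were checked on simulated data. Members and lists were chosen with earlier results of these data known, so no test was made. All members were named, as was each member's highest pooled peak. Genes named from the other lists were the best 4 per list with a reproducible peak, with svp and knrl added after their values were seen. Also named outside that rule were nos, osk, pros, nerfin-1 and dac, whose best reproducible peak lay nearer the TSS of another gene. No site recurred in all 3 replicates, so sequences were chosen by the rule stated with them. Alternatives were territory, threshold, overlap, assignment and leaving out each replicate.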

Additional observations from a re-analysis of the deposited data

How the results depend on the processing

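The count of 0 genes with a reproducible peak was the same with 10 kb upstream, with 5 kb downstream added and with any overlap. The shares of all genes under those rules, and by nearest TSS, are not given here. The count was also 0 by nearest TSS and without any 1 replicate (range 0 to 0, from top peaks shared by the others). Without replicate 1, 2 or 3 the share of all genes was 30.7%, 32.8% and 30.4%. The count could only be 0 with 1 kb upstream or in the upper part of the set, since both settings narrow the rule. In a looser set of 9048 pooled peaks it was 2, hb and pdm2, against 53.1% of all genes. The 2 genes with a pooled peak below 0.05 became 0 at a q-value of 0.01, and the share of all genes at that cutoff is not given here. They became 3 with 10 kb upstream (hb, kni and pdm2, against 63.0% of all genes). With 5 kb downstream added there were also 3 (hb, pdm2 and D, against 64.1%). Counting any listed peak gave 5, 10 and 5 genes in replicates 1, 2 and 3, and the first 4524 ranks gave 1 in replicate 2. Sites in all 3 replicates numbered 2 with 10 kb upstream and 3 with 5 kb downstream, and sites in both remaining replicates numbered from 2 to 3 when 1 was left out, by construction a looser rule. The median best rank of the members in the pooled list was 100% with genes lacking a peak set to the end of the list, and 62.6% with 5 kb downstream. Start-site calls, varied after seeing the data, numbered 1 in replicate 1 with any listed peak and 0 in replicate 2 within the first 4524 ranks.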
